A study of Mus musculus with 4 samples.

Results

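The proteasome genes of YUMM1.7 mouse melanoma cells were examined in protrusions and in cell bodies. Members were the genes of the deposited table named *Psma*, *Psmb*, *Psmc*, *Psmd*, *Psme*, *Psmf* or *Psmg* followed by a number. The rule found 47 genes, from which the 3 interferon-inducible subunits *Psmb8*, *Psmb9* and *Psmb10* were set apart. This left 44 of the 16537 genes of the table: 7 of the alpha ring and 8 of the beta ring of the 20S core, 6 ATPases and 11 non-ATPase subunits of the 19S particle, 3 assembly chaperones of the 19S particle, 4 assembly chaperones of the 20S core, 4 activators and 1 inhibitor.

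The series held 4 RNA-seq libraries, 2 of protrusions and 2 of cell bodies. YUMM1.7 is a mouse line engineered to resemble human melanoma, with activated *Braf* and inactivated *Cdkn2a* among its alterations. Both fractions came from the same unmodified cells, labelled wildtype, which were left overnight on porous membranes with fibronectin on the lower side. Protrusions passed through pores too narrow for cell bodies, cell bodies were scraped from the top, and each replicate pooled 6 inserts. The labels call the replicates biological. They do not say what separated them, so p-values measure only the spread between these samples, which may be technical.

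The proteasome breaks down proteins that carry ubiquitin chains. Its 20S core is a barrel of stacked rings: outer rings of alpha subunits control entry, and inner rings of beta subunits hold the proteolytic sites. The 19S particle caps the barrel, where ATPases unfold and feed in the substrate and non-ATPase subunits bind ubiquitin, remove it or hold the particle together. In mammalian cells the subunits are made in matched amounts, and the transcription factor Nfe2l1 raises their genes together when proteasome activity falls short.

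Proteasome mRNAs were spread almost evenly between protrusions and cell bodies. TPM, a depth-scaled transcript abundance, is a share of the RNA of a fraction, scaled for gene length, so the amount of RNA per protrusion was not measured. In these bulk samples fewer cells of a type and less RNA per cell cannot be told apart. The 44 genes together held 9205 and 10051 TPM in the protrusion libraries, against 9505 and 10099 TPM in the cell body libraries. This was 0.920% and 1.01% of the library in protrusions, against 0.951% and 1.01% in cell bodies, and the ranges overlapped.

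No gene of the group passed the test between fractions. The test was limma on log2(TPM + 0.5) over the 11400 genes with a mean of at least 1 TPM, 43 of which were members, with Benjamini-Hochberg adjustment over all 11400 and a call at an adjusted p under 0.05. Of the 43 members, 0 were called higher and 0 lower in protrusions, where 2.99% of all tested genes were called higher and 4.25% lower. At an unadjusted p under 0.05, 3 members (*Psmd3*, *Psme3* and *Psmb4*) were higher and 0 were lower, against 12.6% and 18.7% of all tested genes. With the replicate number as a block, limma called 2 members higher (*Psmd3* and *Psme3*) and 0 lower, where it called 8.08% of all tested genes higher and 13.3% lower. In both fits the shares of members called lay below those of all tested genes. Without the block, and on the higher side with it, the counts were too small to set the members apart.

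Differences between the fractions were also small. In the fit without the block, the 95% interval of the fold change lay within 2-fold either way for 40 of the 43 members. Among all tested genes, 74.1% had such an interval. The exceptions were *Psmd3*, *Psme1* and *Psme2*. With the block, the interval on the log2 scale was 0.01 to 0.56 for *Psme1* and 0.09 to 0.63 for *Psme2*, both within 2-fold. For *Psmd3* it was 0.38 to 1.02. On the log2 scale, the ratio of protrusions to cell bodies lay within 0.3 of no change in 40 of 43 members (93.0%), against 51.9% of all tested genes. The median over members was -0.01, with 19 values above 0 and 24 below, against a median of -0.07 over all tested genes. The SD of the log2 fold changes was 0.20 over members and 0.46 over all tested genes. The members are abundant mRNAs. Among tested genes with a mean of at least 100 TPM, 32 of 33 members (97.0%) lay within 0.3, against 58.4% of 1527 genes. At this level the 95% interval lay within 2-fold for 93.9% of members, against 83.4% of genes. All 9 tested subunits of the COP9 signalosome and all 8 of the chaperonin also lay within 0.3. So did 9 of 12 tested subunits of eIF3 and 9 of 12 tested factors bound to the proteasome. Of the tested genes of substrate supply and of the transcription of proteasome genes, 10 of 21 did. Both protrusion libraries stood above both cell body libraries for 8 of the 43 members (26.4% of all tested genes), and below them for 13 (37.0% of all tested genes).

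**Figure D1:**
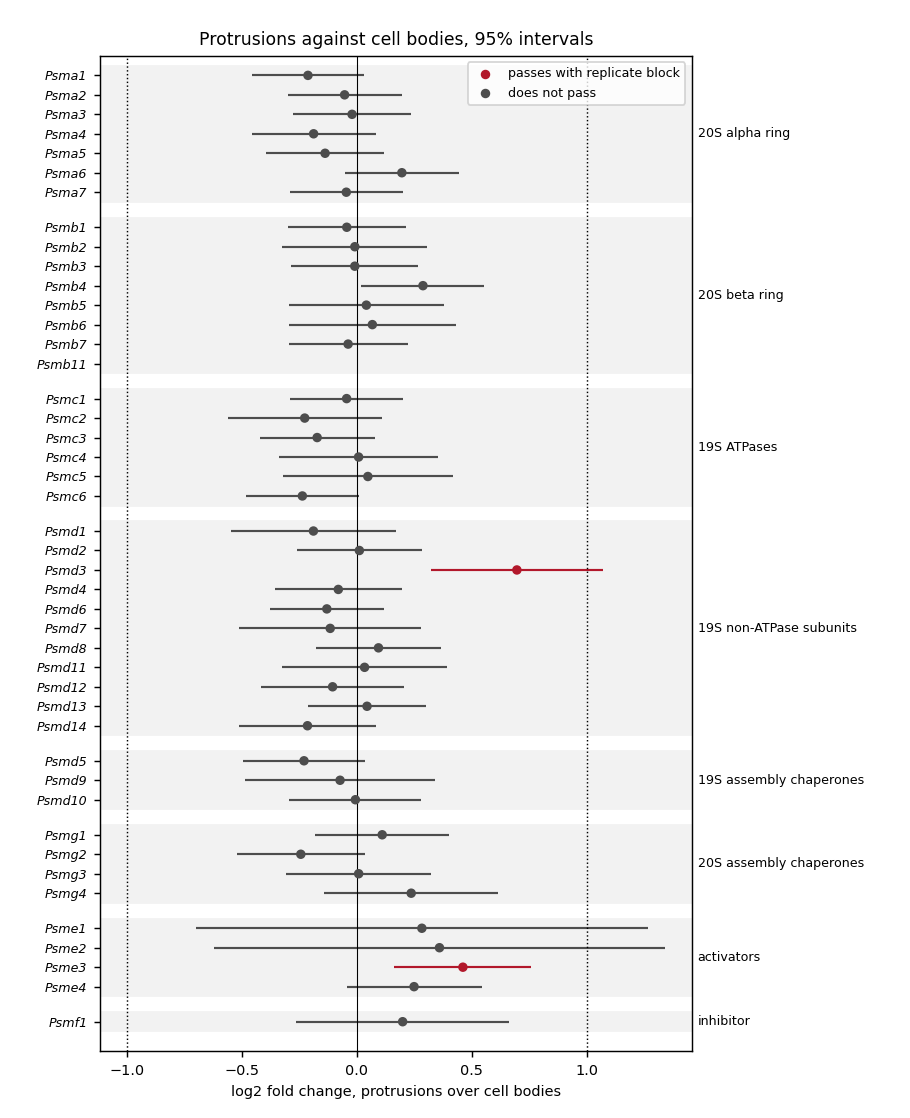
Log2 ratio of protrusions to cell bodies (horizontal axis) for each tested proteasome gene, grouped by place in the complex, with 95% intervals from limma without the replicate block; dotted lines mark 2-fold either way. Most points lie close to 0, *Psmd3* at 0.70 and *Psme3* at 0.46 are coloured because they passed with the block, and *Psme1* and *Psme2* have the widest intervals; *Psmb11* was not tested.

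The alpha ring of the 20S core, whose subunits form the gate, was slightly lower in protrusions in its summed level. The 7 mRNAs summed to 2519 and 2650 TPM in protrusions, against 2701 and 2708 TPM in cell bodies, so that the fractions did not overlap. Their log2 fold changes had a median of -0.05, and 0 of 7 were called in either direction, without or with the block, or had an unadjusted p under 0.05. Centring on the library median turned this median to 0.03, and voom turned it to 0.0077. *Psma1* had the lowest value of the ring. Its level was 273 and 276 TPM in protrusions, against 319 and 317 TPM in cell bodies (log2 fold change -0.21, SE 0.10, limma adjusted p = 0.207). *Psma4* was the most abundant of all members by mean level, with 408 and 455 TPM in protrusions against 486 and 495 TPM in cell bodies (log2 fold change -0.19, adjusted p = 0.290). *Psma6* was the only subunit of the ring above 0, with 362 and 368 TPM in protrusions against 324 and 313 TPM in cell bodies (log2 fold change 0.20, adjusted p = 0.238).

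The beta ring overlapped between fractions. Its summed level was 2245 and 2530 TPM in protrusions, against 2267 and 2374 TPM in cell bodies, and the median log2 fold change of the 7 tested subunits was -0.01. *Psmb5*, which carries the chymotrypsin-like site and is the main target of proteasome inhibitors, had 213 and 258 TPM in protrusions against 216 and 240 TPM in cell bodies (log2 fold change 0.04, 95% interval -0.29 to 0.38). The other proteolytic subunits, *Psmb6* and *Psmb7*, had log2 fold changes of 0.07 and -0.04. *Psmb4*, a structural subunit of the ring, stood highest. It had 381 and 417 TPM in protrusions against 318 and 335 TPM in cell bodies, without overlap (log2 fold change 0.29, SE 0.11, limma adjusted p = 0.140, and 0.103 with the block). *Psmb1*, also without a proteolytic site, had 391 and 423 TPM in protrusions against 421 and 417 TPM in cell bodies, the lowest log2 fold change of the ring at -0.04.

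*Psmb11*, a beta subunit of the thymic cortex, was the only member below the filter. It had 0.157 and 0.166 TPM in protrusions, against 0.290 and 0.236 TPM in cell bodies, from 9 to 19 reads in each library. It was not tested.

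The ATPases of the 19S particle, which form the unfolding motor, had a median log2 fold change of -0.11. It was -0.05 with GC correction, -0.03 centred on the library median, -0.25 centred on *Ppia* and *Ywhaz*, -0.05 with voom, and -0.17 to -0.07 with each library left out in turn. Summed over the 6 mRNAs, protrusions held 1441 and 1564 TPM and cell bodies 1588 and 1665 TPM, without overlap, and 0 of 6 were called without or with the block or had an unadjusted p under 0.05. *Psmc6* had the lowest value, 336 and 338 TPM in protrusions against 399 and 395 TPM in cell bodies (log2 fold change -0.24, SE 0.10, limma adjusted p = 0.169, and 0.172 with the block), and was at 0.10 after GC correction. *Psmc2* had 155 and 187 TPM in protrusions against 189 and 210 TPM in cell bodies (log2 fold change -0.23, adjusted p = 0.303), with the fractions apart by a narrow margin. At the other end of the group, *Psmc5* had 188 and 243 TPM in protrusions against 201 and 212 TPM in cell bodies (log2 fold change 0.05).

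Among the 11 non-ATPase subunits, *Psmd3* stood apart from the rest. It encodes Rpn3, a scaffold subunit of the lid. *Psmd3* had 101 and 113 TPM in protrusions, against 73.8 and 58.3 TPM in cell bodies, from 1624 to 4118 reads a library. Both protrusion libraries were higher than both cell body libraries. The log2 fold change was 0.70 (SE 0.15, 95% interval 0.32 to 1.07, limma adjusted p = 0.0516), the highest of the 43 tested members, and with the replicate block the gene passed (adjusted p = 0.0076). The ratio was 1.37 in replicate 1 and 1.93 in replicate 2. The gene lies at chr11:98682553-98695978 on the forward strand (GRCm38, GENCODE M21).

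The other 10 non-ATPase subunits had log2 fold changes from -0.21 to 0.09. *Psmd14*, the deubiquitinase that removes ubiquitin chains at the entry of the particle, was the lowest, with 306 and 293 TPM in protrusions against 321 and 376 TPM in cell bodies (log2 fold change -0.21, adjusted p = 0.278). *Psmd4*, a ubiquitin receptor, had 213 and 227 TPM in protrusions against 221 and 245 TPM in cell bodies (log2 fold change -0.08). *Psmd2* and *Psmd1*, the large subunits at the base of the particle, had log2 fold changes of 0.01 and -0.19. *Psmd3* was also the least abundant subunit of the particle in every library.

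**Figure D2:**
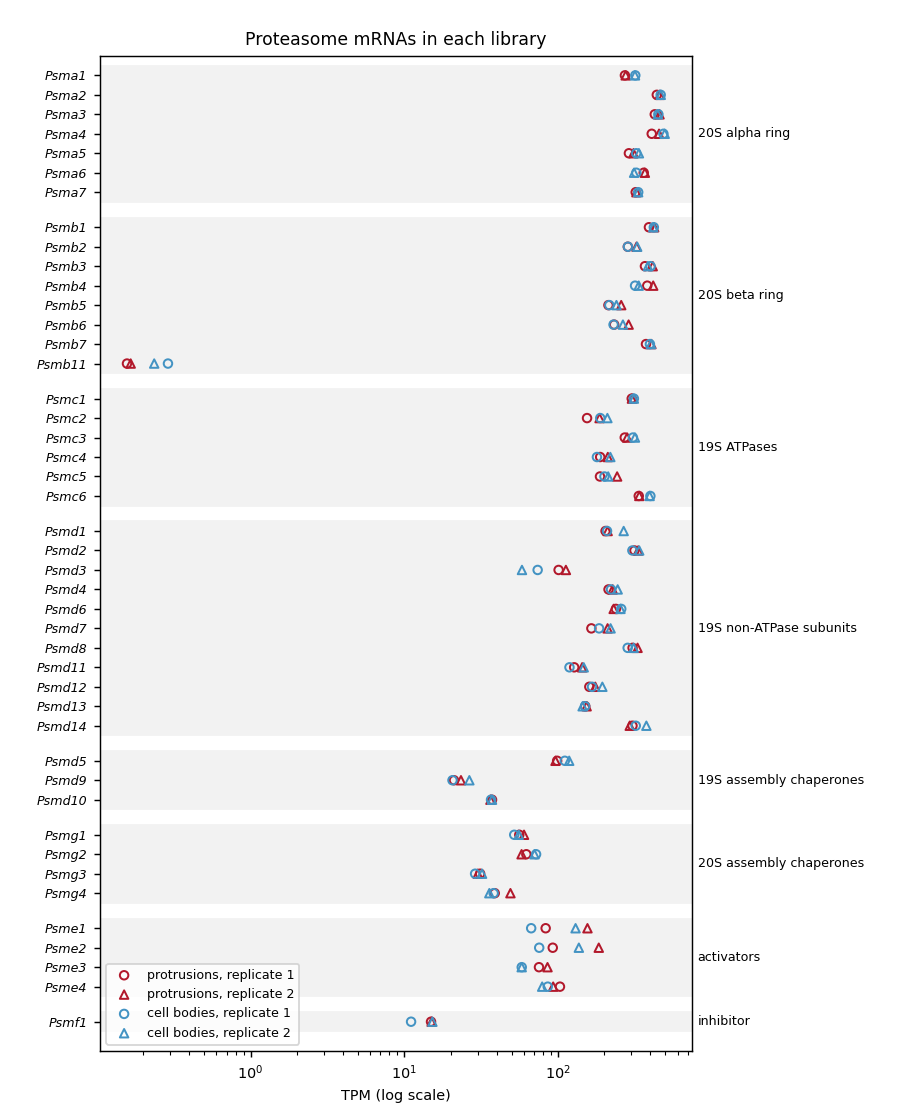
Level of each of the 44 proteasome genes in TPM (logarithmic horizontal axis) in the 4 libraries, protrusions in red and cell bodies in blue, circles for replicate 1 and triangles for replicate 2. Subunits of the 20S core lie between 213 and 495 TPM apart from *Psmb11*, and the assembly chaperones and *Psmf1* lie lower. The red symbols of *Psmd3* lie to the right of the blue ones, and *Psme1* and *Psme2* split by replicate.

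The levels of the 14 tested core subunits were close to each other. They ranged from 213 to 495 TPM over all libraries, and their coefficient of variation within a library was 21.1% and 19.4% in protrusions, against 23.7% and 20.7% in cell bodies. The core summed to 4763 and 5180 TPM in protrusions against 4968 and 5081 TPM in cell bodies. The 17 subunits of the 19S particle summed to 3727 and 3983 TPM in protrusions against 3881 and 4223 TPM in cell bodies. Both sums overlapped between the fractions.

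The assembly chaperones among the members lay below the tested subunits of the 20S core in every library. *Psmd5*, *Psmd9* and *Psmd10* hold ATPases while the 19S particle is built. *Psmd5* had 98.8 and 96.4 TPM in protrusions against 111 and 118 TPM in cell bodies (log2 fold change -0.23, adjusted p = 0.209). *Psmd9* had 21.1 and 23.4 TPM in protrusions against 20.6 and 26.5 TPM in cell bodies, and *Psmd10* had 37.2 and 36.4 TPM in protrusions against 36.7 and 37.2 TPM in cell bodies. Only *Psmd5* was apart between the fractions, and 0 of 3 were called.

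The chaperones of the 20S core, *Psmg1* to *Psmg4*, guide the alpha ring together. *Psmg2* had the lowest log2 fold change of all members at -0.24, with 62.3 and 58.0 TPM in protrusions against 72.1 and 70.4 TPM in cell bodies (SE 0.11, limma adjusted p = 0.203). *Psmg4*, with 38.8 and 49.1 TPM in protrusions against 38.2 and 35.8 TPM in cell bodies, was at 0.24 (adjusted p = 0.335). *Psmg3* had 31.2 and 30.1 TPM in protrusions against 28.9 and 32.1 TPM in cell bodies, a log2 fold change of 0.01. None of the 4 passed, without or with the block. *Psmf1*, which encodes the inhibitor PI31, was the lowest of the tested members, with 14.9 and 15.1 TPM in protrusions against 11.1 and 15.2 TPM in cell bodies.

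The activators, caps other than the 19S particle, had all 4 members above 0, at a median log2 fold change of 0.32. It was 0.64 without replicate 1 and 0.09 without replicate 2 of protrusions, 0.12 without replicate 1 and 0.61 without replicate 2 of cell bodies, and 0.18 centred on *Ppia* and *Ywhaz*. *Psme3* encodes PA28 gamma, a mostly nuclear activator that works without ATP. It had 75.3 and 85.5 TPM in protrusions, against 58.1 and 58.1 TPM in cell bodies, and the fractions did not overlap. The log2 fold change was 0.46 (SE 0.12, 95% interval 0.16 to 0.76, limma adjusted p = 0.0702), and the gene passed with the replicate block (adjusted p = 0.0296). It lies at chr11:101316250-101323530 on the forward strand. *Psme4*, which encodes the nuclear activator PA200, had 103 and 93.1 TPM in protrusions against 85.8 and 79.0 TPM in cell bodies (log2 fold change 0.25, adjusted p = 0.214, and 0.176 with the block).

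*Psme1* and *Psme2*, which form the interferon-inducible activator PA28 alpha and beta, differed more between replicates than between fractions. *Psme1* had 83.2 and 156 TPM in protrusions, against 67.0 and 130 TPM in cell bodies. *Psme2* had 92.5 and 184 TPM in protrusions, against 75.5 and 137 TPM in cell bodies. Replicate 2 was the higher of the pair in both fractions. Within a replicate protrusions were above cell bodies, by 1.24 and 1.19 times for *Psme1* and by 1.22 and 1.35 times for *Psme2*, and neither passed (limma adjusted p = 0.665 and 0.576, and 0.124 and 0.0604 with the block). The table lists *Psme2b*, a near copy of *Psme2*, as a gene of its own, so the split of reads between them is uncertain.

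The difference between replicates was larger in these members than in any other, and interferon genes differed in the same direction. On the log2 scale, replicate 2 exceeded replicate 1 by 0.90 in protrusions and 0.95 in cell bodies for *Psme1*, and by 0.99 in protrusions and 0.85 in cell bodies for *Psme2*. Only about 1.52% of tested genes had a mean difference at or above that of *Psme1*. The other 41 tested members ranged from -0.15 to 0.37 in protrusions and from -0.34 to 0.44 in cell bodies, with a median mean difference of 0.09 and 33 of the 41 above 0. Over all 11400 tested genes, 5586 were above 0. All 9 interferon response genes listed were higher in replicate 2 of both fractions. *Isg15*, a ubiquitin-like modifier made in response to interferon, had 8.82 and 195 TPM in protrusions, against 8.41 and 137 TPM in cell bodies.

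The 3 immunoproteasome subunits set apart from the members, which replace their counterparts in the beta ring after interferon, moved with them. *Psmb8* had 1.696 and 19.5 TPM in protrusions, against 0.530 and 14.1 TPM in cell bodies. *Psmb9* had 0.368 and 2.84 TPM in protrusions, against 0.483 and 2.77 TPM in cell bodies. *Psmb10* had 18.3 and 48.3 TPM in protrusions, against 16.8 and 38.1 TPM in cell bodies. All 3 were lower in replicate 1 of each fraction, and each was far below its constitutive counterparts *Psmb5*, *Psmb6* and *Psmb7*. Between fractions, *Psmb8* was called higher only with the block (log2 fold change 0.77, limma adjusted p = 0.756, and 0.0411 with the block). In replicate 1 it had only 28 reads in protrusions and 10 in cell bodies. The ratio was 3.20 in replicate 1 and 1.38 in replicate 2. With the block, *Psmb8* did not pass after GC correction (adjusted p = 0.117) and passed with voom (0.0104). What separated the replicates was not tested.

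**Figure D3:**
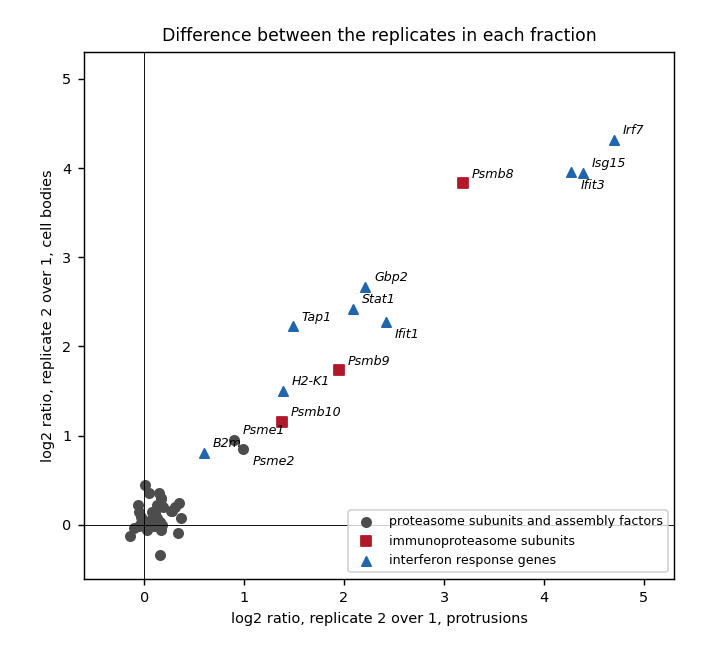
Log2 ratio of replicate 2 over replicate 1 in protrusions (horizontal axis) and in cell bodies (vertical axis) for the tested proteasome genes, the 3 immunoproteasome subunits and 9 interferon response genes. *Psme1* and *Psme2* lie near 0.9 on both axes beside *Psmb10* and *B2m*, while the other 41 members lie between -0.34 and 0.44, with 33 of their means above 0.

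Promoters were searched for the letters of the interferon-stimulated response element, since members that moved with the interferon genes could be set beside those that did not. RefSeq promoters (GRCm38.p6, windows of 300 bases across the gene start) were found for 37 of the 44 members, 40 promoters in all. The motif, GAAA, any 2 bases and GAAA again, on either strand, occurred in 5 of these 40 (12.5%), against 3.44% of 32851 promoters of all genes. The 5 matches are shown with 10 bases on either side, on the strand of the gene, with the match in capitals.
Psme1, chr14:55578493-55578522, forward strand: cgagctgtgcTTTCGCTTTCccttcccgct
Psmb3, chr11:97703261-97703290, forward strand: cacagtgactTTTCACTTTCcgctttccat
Psmd4, chr3:95042675-95042704, reverse strand: ataaccaaccTTTCCATTTCtgtggcgcct
Psmd9, chr5:123228021-123228050, forward strand: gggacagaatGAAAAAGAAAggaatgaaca
Psmg4, chr13:34162969-34162998, forward strand: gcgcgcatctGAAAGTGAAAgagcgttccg

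Of these 5 genes, *Psme1* alone had the difference between replicates described above. Its match began at base 10 counted from the gene start. *Psmb3*, with a match 163 bases before its start, differed by 0.17 in protrusions and -0.06 in cell bodies, and *Psmg4* by 0.34 in protrusions and -0.09 in cell bodies. *Psmd4* differed by 0.09 in protrusions and 0.14 in cell bodies, and *Psmd9* by 0.15 in protrusions and 0.36 in cell bodies, both higher in replicate 2. *Psme2* and the 3 immunoproteasome subunits had no match in these windows. The letters TTCNNNGAA of the gamma-activated sequence, on either strand, occurred in 2 of the 40 member promoters (5.0%) and in 8.30% of all. The letters TGACNNNGC of the antioxidant response element, on either strand, occurred in 6 (15.0%) and in 12.4% of all, close to the share in all promoters. *Psmd9* held both this and the interferon letters, at separate positions. A match is a description of letters and does not show that a factor binds.

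Transcript composition went with the fold change. Over the 43 tested members, Spearman's rho of the log2 fold change with the GC content of the transcript was 0.49, and 0.46 over 41 without *Psmd3* and *Psme3*. The rho was 0.38 over 11322 tested genes. Genes are not independent replicates and share the libraries, so these values are descriptions. *Psmc6*, with one of the lowest log2 fold changes, had the lowest GC content of the tested members (37.0%), and *Psmd3* had the highest (58.3%). After each library was corrected for GC content, *Psmd3* was at a log2 fold change of 0.44, *Psme3* at 0.49 and *Psmc6* at 0.10. In the fit with both the correction and the block, *Psmd3* (adjusted p = 0.0457), *Psme3* (0.0300) and *Psme4* (0.0411, log2 fold change 0.42) passed. Without the block none of the members passed after the correction. The part of GC content in the differences was not tested further.

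**Figure D4:**
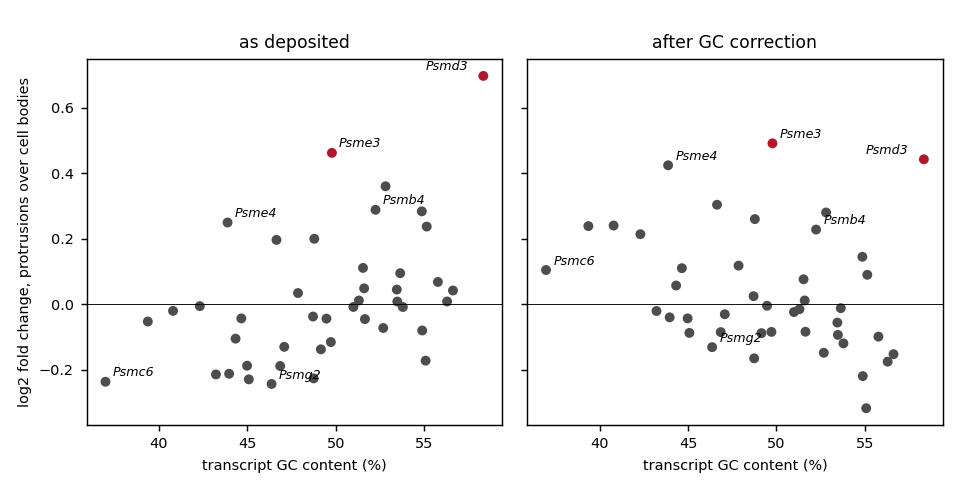
Log2 ratio of protrusions to cell bodies (vertical axis) against the GC content of the transcript in percent (horizontal axis) for the 43 tested members, before (left) and after (right) correction of each library for GC content; red points passed with the block before correction. Before correction the values run upward with GC content and *Psmd3* is at 0.70. After it *Psmd3* is at 0.44, below *Psme3* at 0.49.

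The 3′ UTRs were examined because G- and A-rich stretches in 3′ UTRs are known to carry mRNAs such as *Rab13*, *Kif1c* and *Net1* to protrusions. For each gene the window of 30 bases with the most G and A was taken from the GENCODE M21 transcript. Windows are shown for the 2 members that passed with the block and, for comparison, for *Rab13*, *Kif1c* and *Net1*, with G and A in capitals.
Psmd3, chr11, from base 4 of the 3′ UTR: AGGccGGGGGAGGGGcGGGctGAGtGGAGA
Psme3, chr11, from base 408 of the 3′ UTR: tAGGAAcAGGGGGAGtGGAGGtGGAAGGGA
Rab13, chr3, from base 139 of the 3′ UTR: GGAAGAAAGGGGcAGGGAAAGGAGGGGGAG
Kif1c, chr11, from base 92 of the 3′ UTR: cAGAAAGcAGAGAGcAAGAGAGAGGGAAGG
Net1, chr13, from base 440 of the 3′ UTR: cAGAGGGAGcAtGGAAttGtAAtAGtGAcA

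The *Psmd3* window held 24 G or A of 30, a number that 55.1% of the 10408 tested 3′ UTRs long enough reached. The *Psme3* window held 26, which 24.6% reached, against 29 for *Rab13* (5.53%), 27 for *Kif1c* (14.6%) and 21 for *Net1* (87.4%). The *Net1* window was poorer in G and A than those of both members. *Psma3* and *Psmd12*, with windows of 28, and *Psmd11*, with 27, had log2 fold changes of -0.02, -0.11 and 0.03. The 3′ UTRs of the members were short, with a median of 227 bases against 1059.5 bases over the tested genes with such a window. Over members, rho of the fold change with the length of the 3′ UTR was -0.06.

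Factors that bind the proteasome or bring substrate to it were tested in the same fit. Of 12 tested factors bound to the proteasome, 1 was called higher in protrusions and 0 lower (2.99% and 4.25% of all tested genes). Their median log2 fold change was 0.00. The gene called was *Adrm1*, which encodes the receptor Rpn13. It had 101 and 111 TPM in protrusions, against 61.2 and 56.6 TPM in cell bodies (log2 fold change 0.84, SE 0.12, limma adjusted p = 0.0349). After GC correction it was at 0.53 and no longer passed without the block (adjusted p = 0.0549, and 0.0168 with it). *Akirin2*, needed for import of proteasomes into the nucleus, had 57.8 and 63.1 TPM in protrusions against 47.6 and 43.9 TPM in cell bodies (log2 fold change 0.40, adjusted p = 0.0941, and 0.0616 with the block). After GC correction *Akirin2* was at 0.49 and passed only with the block (limma adjusted p = 0.0788, and 0.0390 with it). *Zfand2a*, a stress-induced proteasome-binding factor, had 16.8 and 20.6 TPM in protrusions against 12.4 and 14.7 TPM in cell bodies (log2 fold change 0.45, adjusted p = 0.144). *Pomp*, the maturation factor of the core, had 371 and 421 TPM in protrusions against 358 and 360 TPM in cell bodies. It did not pass.

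Of 21 tested genes of substrate supply and of the transcription of proteasome genes, 2 rose in protrusions and 0 fell, against 2.99% and 4.25% of all tested genes. With the block 5 rose and 3 fell, against 8.08% and 13.3%, so the share that fell was near that of all genes. Both genes called without the block were ubiquilins, shuttle proteins that carry ubiquitinated substrate to the proteasome. *Ubqln4* had 56.9 and 56.2 TPM in protrusions, against 34.5 and 34.6 TPM in cell bodies (log2 fold change 0.70, SE 0.11, limma adjusted p = 0.0366). *Ubqln1* had 104 and 93.5 TPM in protrusions, against 66.3 and 53.9 TPM in cell bodies (log2 fold change 0.72, SE 0.14, adjusted p = 0.0466). The related *Ubqln2* had 18.6 and 18.6 TPM in protrusions against 10.5 and 12.3 TPM in cell bodies (log2 fold change 0.69, adjusted p = 0.0510, and 0.0174 with the block). In all 3 the fractions were apart. After GC correction the calls of *Ubqln4* (adjusted p = 0.0592, and 0.0232 with the block) and *Ubqln1* (0.0526, and 0.0060 with the block) ended without the block only. Among the genes called with the block, *Nploc4*, an adaptor of the segregase Vcp, also rose, while *Nfe2l2*, *Uba6* and *Faf2* fell. With both GC correction and the block, *Faf2* kept its call (limma adjusted p = 0.0334). *Nploc4* (0.0664), *Nfe2l2* (0.0550) and *Uba6* (0.178) did not.

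Complexes of similar build were set beside the proteasome. Of the 9 tested subunits of the COP9 signalosome, a relative of the 19S lid, 0 were called without or with the block (median log2 fold change -0.13), and 1, *Cops5*, had an unadjusted p under 0.05. All 8 subunits of the chaperonin were likewise uncalled (median -0.11), 1 of them, *Cct5*, with an unadjusted p under 0.05. Of 12 tested subunits of eIF3, another relative of the lid, 1 was called higher and 0 lower (2.99% and 4.25% of all tested genes). The gene called was *Eif3f*, with 194 and 202 TPM in protrusions against 76.4 and 57.0 TPM in cell bodies (log2 fold change 1.58, limma adjusted p = 0.0335). With the block, *Eif3a* was called lower (log2 fold change -0.40, limma adjusted p = 0.0344). After GC correction *Eif3a* was at -0.24 and did not pass with the block (adjusted p = 0.151), nor did it with voom and the block (0.101). The 4 control mRNAs *Ppia*, *Ywhaz*, *Rhoa* and *Arpc3* had 0 calls, 0 with an unadjusted p under 0.05, and a median of 0.14.

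The reads assigned to genes, worked back from TPM, numbered 25854888 and 30994908 in the protrusion libraries, against 29289505 and 25900795 in the cell body libraries. Tested members had 257 to 17291 reads in each library. Of 7 melanocyte markers 3 were in the table and *Mitf* alone reached a mean of 1 TPM, with *Pmel* and *Tyr* under 1 TPM in every library. The 12 hepatocyte markers summed to 62.5 and 3.29 TPM in protrusions, against 1.11 and 3.18 TPM in cell bodies, so replicate 1 of protrusions stood apart, led by *Alb* at 28.4 TPM. Their part in the proteasome values was not tested. Without that library the log2 fold change was 0.78 for *Psmd3* and 0.55 for *Psme3*, and neither passed (limma adjusted p = 0.0959 and 0.111). Over the 4 fits that each leave out a library, the adjusted p was 0.0899 to 0.239 for *Psmd3* and 0.111 to 0.318 for *Psme3*.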

How the data were processed

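RNA of protrusions and cell bodies was depleted of rRNA and sequenced as strand-specific libraries. The authors deposited 1 table of 16537 genes with TPM per library, and the paper's methods name FastQC, TopHat and edgeR. FastQC and edgeR also stand in the submitters' processing notes, with STAR, featureCounts and the build mm10. The deposited table also holds the authors' log2 fold change, their p-value and FDR, and a likelihood ratio score, none of which was used, and the authors' mean log2 CPM, which set the scale of recovered reads. Whole-number counts were obtained in all 4 libraries for all 16537 genes. They were found from ratios of whole numbers and rounded, so their wholeness is no separate check of the recovered reads.

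The members and all lists were chosen with earlier results of these data known. TPM was fitted as log2(TPM + 0.5) with limma 3.58.1 (R 4.3.3, trend) over 11400 genes with a mean of at least 1 TPM, with Benjamini-Hochberg adjustment of the p-values over all of them. Fold changes are on this log scale, which understates the change of low genes. SE and 95% intervals are from that fit. The fit had no block. Replicate numbers were taken to pair the fractions, which came from the same inserts and are headed as paired in the study's supplement. Libraries with the same number deviated together from their group means (correlation 0.447 over 11400 genes). The blocked fit is given where it changes a call.

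Values were given in every library for members called in either fit, for the members with the highest and lowest fold change and mean TPM of each structural group, and for those failing the filter, and a few others were named for their known role after their values were seen. In the other lists, called genes and those with the smallest p were named, apart from 1 gene that is not reported here. Alternatives were another pseudocount (0.1 or 1), no filter or a mean of at least 5 TPM, centring on the library median or on *Ppia* and *Ywhaz*, correction for transcript GC content (loess, span 0.3), leaving out each library, and limma voom on recovered reads, added after the data were seen. The fit was tested on simulated data. Transcripts and coordinates are from GENCODE M21, and promoters from RefSeq.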

Additional observations from a re-analysis of the deposited data

How the results depend on the processing

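The count of members called lower by limma was 0 under each of the 15 alternatives run. Of the values of the 21 members chosen by the rule above, 271 of 315 kept their sign and their side of the threshold, 11 came to pass and 33, over 9 members, changed sign without a call. Members called higher numbered 1 at a mean of at least 5 TPM (*Psmd3*, limma adjusted p = 0.0358), 2 with the replicate block, 3 with GC correction and the block, 2 with voom and 3 with voom and the block. Over all tested genes, calls higher and lower were 921 and 1513 with the block, 748 and 1146 with GC correction and the block, 40 and 64 with GC correction alone, 207 and 1099 centred on *Ppia* and *Ywhaz*, 775 and 889 with voom, and 1832 and 2052 with voom and the block. A mean of at least 5 TPM gave 801 lower. Without a filter limma called 0 and 0, with 3630 genes at an unadjusted p under 0.05. Leaving out each library gave 0 to 14 calls higher and 0 to 144 lower, with 1899 to 3157 genes at an unadjusted p under 0.05. The cause was not tested. The median log2 fold change of the members was 0.071 centred on the library median, -0.146 centred on *Ppia* and *Ywhaz*, -0.0152 with GC correction without or with the block, 0.0524 with voom without or with the block, and -0.096 to 0.0307 with each library left out. Centring on *Ppia* and *Ywhaz* moved the median of all genes by -0.14, so the sign of members near 0 depends on the scaling. In the limma fit on log2(TPM + 0.5) without GC correction the replicate block changed the call of no member other than *Psmd3* and *Psme3*, while with GC correction it also brought *Psme4* past the threshold and with voom *Psme2*. With 2 libraries a fraction, a log2 fold change of 0.29 as in *Psmb4* did not pass without or with the block.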
